A study of Mus musculus with 6 samples.

Results

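The 8 clock output transcription factors Dbp, Tef, Hlf, Nfil3, Bhlhe40, Bhlhe41, Ciart and Rora were followed in RNA sequencing of inguinal white adipose tissue, the subcutaneous fat depot of the groin. They were selected by gene ID, and all 8 were found among 24415 gene IDs and passed the filter on low counts. The samples were 3 labelled Hsp20 KO and 3 WT, all from nonfasted mice on a C57BL/6 background, 12 weeks old, with no treatment named. Each numbered replicate was taken as 1 mouse with 1 library. Hspb6 is the gene of Hsp20, a small heat shock protein. The sources used here do not give how the knockout allele was made, in which cells it acts, whether WT mice were littermates, the time of day of collection or a sequencing batch.

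In mammals the clock is a feedback loop in which the activators BMAL1 (encoded by Arntl) and CLOCK switch on their own repressors. The output factors pass this rhythm on to tissue genes. DBP, TEF and HLF form the PAR-bZIP family and activate genes through a DNA element called the D-box, while NFIL3 (also E4BP4) represses through the same element. BHLHE40 and BHLHE41 (DEC1 and DEC2) and CIART (CHRONO) repress transcription driven by BMAL1 and CLOCK, and RORA activates genes such as Arntl through the element called RORE. Transcription of Dbp, Ciart and Bhlhe41 is itself driven by BMAL1 and CLOCK through E-boxes, and that of Nfil3 is held down by the REV-ERB proteins through RORE. In fat, many transcripts of lipid handling follow a daily rhythm.

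Promoters of the members differed in which of these elements they held. Windows from 250 bases before to 50 bases after a gene's start (RefSeq, GRCm38.p6) were given for 7 of the 8 members, with 8 windows in all since Tef had 2 starts, and none for Bhlhe40. They were searched on both strands for the E-box CACGTG, the D-boxes TTATGTAA and TTACGTAA, and the RORE core TAGGTCA, none of which overlap each other in the matches below. Ciart held 3 E-boxes, Bhlhe41 held 1, and each Tef window held 1. Nfil3 held the only RORE core among the members. The stretches before the start are printed with matches in capitals, because they hold the letters searched for; whether they are bound in fat was not measured.
Ciart, chr3:95882229-95882478, minus strand: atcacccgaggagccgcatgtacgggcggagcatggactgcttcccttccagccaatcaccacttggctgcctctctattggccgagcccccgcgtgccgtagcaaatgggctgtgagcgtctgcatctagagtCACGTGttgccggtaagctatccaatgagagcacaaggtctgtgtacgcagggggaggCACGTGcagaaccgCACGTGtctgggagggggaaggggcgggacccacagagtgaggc
Bhlhe41, chr6:145865421-145865670, minus strand: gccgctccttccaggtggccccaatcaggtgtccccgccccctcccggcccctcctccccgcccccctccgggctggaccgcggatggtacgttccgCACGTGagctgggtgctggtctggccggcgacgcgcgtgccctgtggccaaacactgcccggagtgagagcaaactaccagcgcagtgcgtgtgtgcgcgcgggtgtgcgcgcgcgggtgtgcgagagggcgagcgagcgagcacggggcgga
Tef, later start, chr15:81811164-81811413, plus strand: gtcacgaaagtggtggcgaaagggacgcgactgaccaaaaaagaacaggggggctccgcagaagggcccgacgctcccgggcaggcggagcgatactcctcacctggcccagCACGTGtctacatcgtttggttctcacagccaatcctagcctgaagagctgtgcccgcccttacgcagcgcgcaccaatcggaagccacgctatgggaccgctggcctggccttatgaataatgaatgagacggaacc
Nfil3, chr13:52981040-52981289, minus strand: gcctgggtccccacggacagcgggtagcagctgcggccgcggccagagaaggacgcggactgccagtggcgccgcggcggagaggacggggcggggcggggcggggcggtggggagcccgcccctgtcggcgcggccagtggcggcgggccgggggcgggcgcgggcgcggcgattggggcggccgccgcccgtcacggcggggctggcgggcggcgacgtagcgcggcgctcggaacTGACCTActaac
In Ciart the E-boxes began 116, 58 and 44 bases before the start, and in Bhlhe41 the E-box began 153 bases before it. The capitals in Nfil3 are the RORE core read from the other strand, 12 to 6 bases before the start used for this window. That start lies inside the gene bounds given below, which reach 52982878 on the minus strand, so it is not the outermost start of Nfil3. Over all 32851 windows, 7.15% held an E-box, 0.0883% held at least 3, 2.61% held a RORE core and 1.06% held a D-box. The windows of Dbp, Hlf and Rora held none of these letters, which says nothing about elements elsewhere in those genes. No member's window held a D-box. A match is a description of sequence and not a measured binding site.

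Libraries labelled Hsp20 KO held 14078936 to 27937060 counts and WT libraries 26146472 to 32648746. The label of 1 library was not borne out by the targeted gene: Hspb6 had 245, 33 and 53 counts in the libraries labelled Hsp20 KO replicates 1 to 3, against 325, 289 and 296 in WT replicates 1 to 3. Scaled to CPM, counts scaled to a common TMM-adjusted library total, this was 8.86, 1.51 and 3.94 in the libraries labelled KO, against 12.6, 9.43 and 8.95 in WT, and the log2 change of -1.08 ± 0.51 did not pass (edgeR quasi-likelihood test, adjusted p = 0.227). Every direction below therefore compares the libraries labelled KO with WT. Exons of Hspb6 share 77 bases with Gm38670 on the same strand, and 122 with Proser3 and 3 with Lin37 on the other strand. Gm38670 had 25, 1 and 1 counts in the libraries labelled KO replicates 1 to 3 and 0 in every WT library. Reads of the shared bases cannot be assigned to either gene. All 10 fat cell markers were counted in every library, with a summed level of 15368 to 21348 CPM in the labelled KO libraries and 19933 to 22350 CPM in WT. Of the 8 thermogenic fat markers 6 passed as higher, with sums of 218 to 715 CPM in the labelled KO libraries, lowest in replicate 1. In WT the sums were 81.5 to 116 CPM. All 5 red cell transcripts passed as lower, with sums of 3963 to 4833 CPM in the labelled KO libraries and 8985 to 10316 CPM in WT. Of these, Hba-a1 and Hba-a2 both had 46000, 33512 and 18125 counts in the libraries labelled KO replicates 1 to 3. In WT they had the same counts in replicates 1 and 2, and 118083 and 118081 in replicate 3. Their counts are therefore not independent, and the red cell sums include both. Calls over all genes tested came to 4.23% higher and 3.42% lower. The 6 skeletal muscle markers summed to 49.3 to 82.4 CPM in the labelled KO libraries and 75.7 to 725 CPM in WT, the highest sum being that of WT replicate 1, where the myosin gene Myh4 stood at 294 CPM. The muscle markers had 0 edgeR calls (5 lower at an unadjusted p under 0.05). The parts of thermogenic cells, blood and muscle in the results below were not tested, beyond the values given with WT replicate 1 left out. In tissue RNA, a change in the number of cells of a type and a change in RNA per cell cannot be told apart.

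Most of the output factors were higher in the libraries labelled Hsp20 KO. Dbp, Tef, Hlf, Bhlhe40, Bhlhe41 and Ciart rose between 2.42-fold and 6.58-fold, Nfil3 fell to 0.354 of its WT level, and Rora did not pass the test. Of 8 members, 6 were called higher and 1 lower (edgeR quasi-likelihood test, Benjamini-Hochberg adjusted p under 0.05 over 15994 genes), where 4.23% of all genes tested were called higher and 3.42% lower. The median log2 change of the members was 1.62, against 0.001 over all genes tested. For 7 of 8 the groups did not overlap, as was so for 32.5% of all genes tested. By p-value Ciart stood at rank 5, Bhlhe41 at rank 10 and Dbp at rank 15 among the 15994 genes. The place of Ciart above the others depended on the test. With DESeq2 its SE was 0.18, against 0.13 with edgeR. The DESeq2 adjusted p was 5.11e-23 for Ciart, 1.14e-34 for Dbp and 1.69e-35 for Bhlhe41. The members were chosen with earlier results of these data known, so their comparison with all genes is not independent of these data. The hour of collection is not given, so the values here and for the clock genes below are levels at collection only. Whether the groups differed in the timing of the daily rhythm or in the hour of collection was not tested. A level that stays higher through the day was not tested either.

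**Figure D1:**
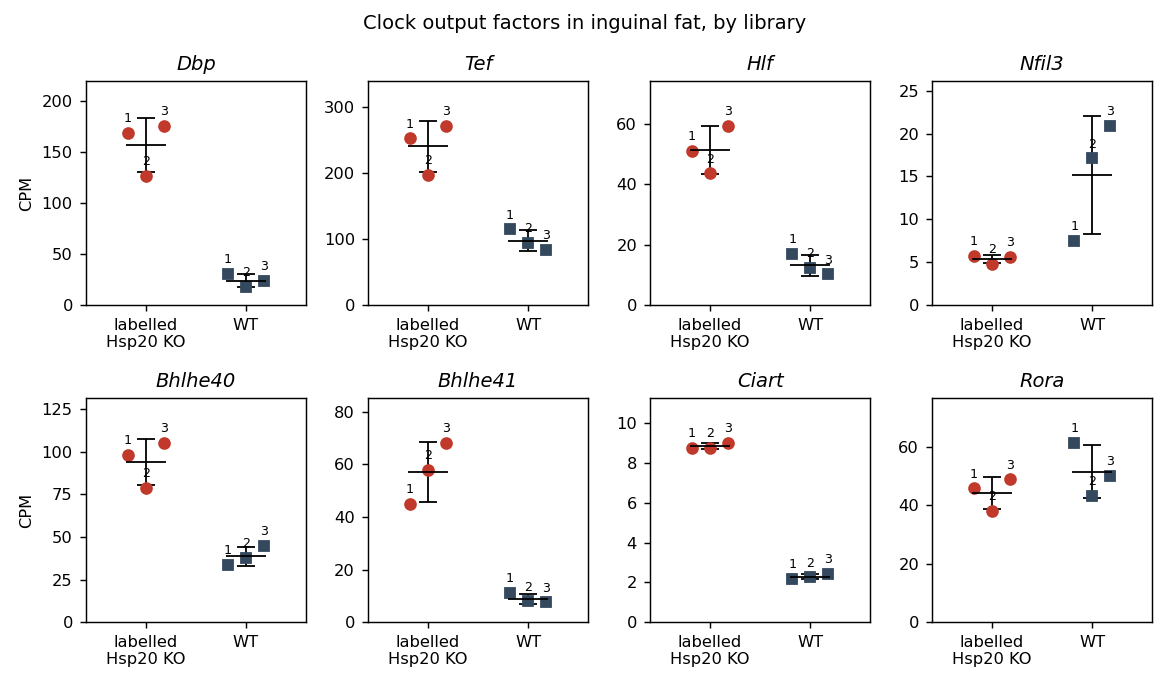
CPM of each output factor (y axis, from 0) in the 3 libraries labelled Hsp20 KO (circles) and the 3 WT libraries (squares), numbered by replicate, with the mean and SD of each group (n = 3). The groups are apart for every factor but Rora, and Nfil3 is the 1 factor among the other 7 that is lower in the labelled KO libraries.

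Dbp, a PAR-bZIP factor with a strong daily rhythm in many tissues (gene ID 13170, chromosome 7, 45705100 to 45710203, plus strand, GRCm38), had 169, 127 and 176 CPM in the libraries labelled KO replicates 1 to 3. In WT replicates 1 to 3 it had 30.5, 17.6 and 23.8 CPM. The lowest labelled KO library, replicate 2, lay above the highest WT library, replicate 1, so the groups were well apart. Dbp averaged 157 ± 26.2 CPM in the labelled KO libraries and 23.9 ± 6.48 CPM in WT (SD, n = 3 each), and its change on the log2 scale was 2.72 ± 0.21 (SE; edgeR adjusted p = 0.00212). Dbp lies 15.2 Mb from Hspb6 on the same chromosome, and its exons share 539 bases with those of Sphk2, a sphingosine kinase gene on the other strand. Sphk2 had 105, 89.8 and 112 CPM in the labelled KO libraries, against 54.3, 46.0 and 48.5 CPM in WT (log2 change 1.04 ± 0.11, edgeR adjusted p = 0.00411). Whether counting used strand is not stated, so reads of the shared bases cannot be assigned to either gene.

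Tef (gene ID 21685, chromosome 15, 81802673 to 81826863, plus strand), the PAR-bZIP factor named for its part in thyrotroph cells of the pituitary, had 253, 198 and 272 CPM in the labelled KO libraries and 115, 95.1 and 84.1 CPM in WT. It changed least of the family, by 1.30 ± 0.15 on the log2 scale (edgeR adjusted p = 0.00655). Hlf (gene ID 217082, chromosome 11, 90336535 to 90390917, minus strand), named for a fusion protein of human leukaemia, had 50.9, 43.6 and 59.3 CPM in the labelled KO libraries and 17.0, 12.2 and 10.2 CPM in WT. In both genes replicate 2 was the lowest of the labelled KO libraries, as it was for Dbp, and replicate 1 the highest in WT. Hlf rose 3.91-fold, a log2 change of 1.97 ± 0.20 (edgeR adjusted p = 0.00411). Tef shares 193 exon bases with Gm17597 on the other strand.

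The family members did not move by the same amount. Within a library the ratio of counts of 2 genes needs no scaling between libraries, and 4 such ratios were compared. The ratio of Dbp to Tef counts was 0.668, 0.643 and 0.647 in the libraries labelled KO replicates 1 to 3, against 0.266, 0.185 and 0.283 in WT replicates 1 to 3. That ratio was nearly the same in all 3 labelled KO libraries and 2.71-fold above WT by the difference of mean log2 ratios. The ratio of Dbp to Hlf counts was 3.32, 2.92 and 2.96 in the labelled KO libraries, against 1.79, 1.44 and 2.33 in WT, a 1.68-fold difference without overlap of the groups. Each of the 4 ratios had an exact two-sided permutation p of 0.1 (0.1 after Benjamini-Hochberg adjustment over the 4), the smallest that 3 against 3 libraries allow, so none can pass 0.05.

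Nfil3 (gene ID 18030, chromosome 13, 52967209 to 52982878, minus strand), the repressor that binds the same element as the PAR-bZIP factors and is also needed for several immune cell types, went the other way. It had 5.71, 4.81 and 5.64 CPM in the labelled KO libraries, against 7.49, 17.1 and 20.9 CPM in WT replicates 1 to 3. The labelled KO libraries lay close together and below all of WT, while WT replicate 1 lay much nearer to them than to the other WT libraries. Nfil3 averaged 5.39 ± 0.503 CPM in the labelled KO libraries and 15.2 ± 6.91 CPM in WT (SD, n = 3 each), and its log2 change of -1.50 ± 0.35 passed narrowly (edgeR adjusted p = 0.0430). The call was lost without the library labelled KO replicate 1, 2 or 3 (adjusted p = 0.0643, 0.105 and 0.0974), without WT replicate 2 or 3 (0.130 and 0.146) and with limma-voom (0.0929), and over all 14 alternatives the log2 change ran from -1.82 to -1.20 and the adjusted p from 1.83e-04 to 0.146. Without WT replicate 1, Nfil3 changed by -1.82 (adjusted p = 0.00755).

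The ratio of Dbp to the D-box repressor Nfil3, which combines the rise of Dbp with the fall of Nfil3 given above, was set out within each library. Dbp is the D-box activator with the largest rise. Tef rose less and had more counts than Dbp in every library, so this ratio is not the balance of all D-box activators to Nfil3. Dbp counts were 29.5, 26.4 and 30.9 times those of Nfil3 in the libraries labelled KO replicates 1 to 3, against 4.06, 1.02 and 1.14 times in WT replicates 1 to 3. The mean log2 ratio was 4.85 ± 0.12 in the labelled KO libraries and 0.75 ± 1.11 in WT (SD, n = 3 each), a 17.2-fold difference. WT replicate 1 stood apart from the other WT libraries, toward the labelled KO libraries. The difference of 4.10 in mean log2 ratio was 4.74 without WT replicate 1, 3.75 without WT replicate 2 and 3.82 without WT replicate 3. These are ratios of counts, which also carry the different lengths of the genes.

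**Figure D2:**
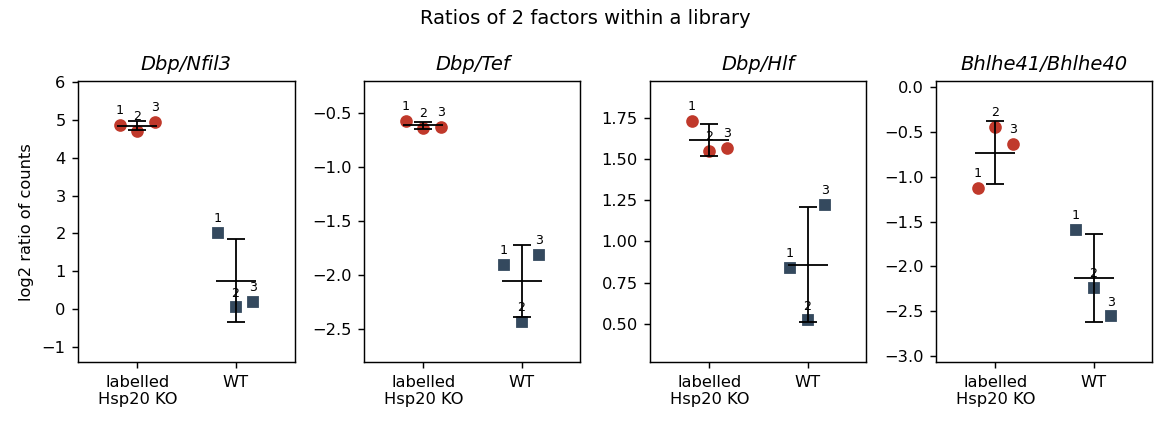
Log2 ratios of counts within each library (y axes) for Dbp/Nfil3, Dbp/Tef, Dbp/Hlf and Bhlhe41/Bhlhe40, in labelled Hsp20 KO (circles) and WT (squares), numbered by replicate, with mean and SD (n = 3). All 4 ratios are higher in the labelled KO libraries without overlap, and Dbp/Nfil3 has means of 4.85 (labelled KO) and 0.75 (WT).

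Both DEC repressors rose, Bhlhe41 more than Bhlhe40. Bhlhe41 (gene ID 79362, chromosome 6, 145858243 to 145865420, minus strand), known in humans for variants that shorten sleep, had 45.1, 58.0 and 68.1 CPM in the libraries labelled KO replicates 1 to 3, against 11.2, 7.96 and 7.62 CPM in WT. The lowest labelled KO library was replicate 1 and still lay above every WT library, and the log2 change was 2.68 ± 0.20 (edgeR adjusted p = 0.00205). Bhlhe40 (gene ID 20893, chromosome 6, 108660629 to 108666925, plus strand), which also responds to hypoxia and cytokines, had 98.3, 78.9 and 105 CPM in the labelled KO libraries, against 33.8, 37.6 and 44.9 CPM in WT. It rose 2.42-fold, a log2 change of 1.28 ± 0.14 (edgeR adjusted p = 0.00534), with replicate 2 again the lowest labelled KO library. Bhlhe41 counts were 0.459, 0.735 and 0.648 of Bhlhe40 counts in the labelled KO libraries, against 0.332, 0.212 and 0.170 in WT, a 2.63-fold difference without overlap. Exons of Bhlhe41 share 1280 bases with Gm43909, and those of Bhlhe40 share 118 bases with 0610040F04Rik, both on the other strand. 0610040F04Rik was itself called higher, at 4.23, 3.16 and 3.42 CPM in the labelled KO libraries, against 1.94, 1.47 and 1.42 CPM in WT (log2 change 1.17 ± 0.21, edgeR adjusted p = 0.0218), and reads of the shared bases cannot be assigned to either gene. Gm43909 was not analysed here.

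Ciart, the repressor of BMAL1 and CLOCK whose window held 3 E-boxes (gene ID 229599, chromosome 3, 95878500 to 95882257, minus strand), rose on low counts. It had 242, 191 and 121 counts in the labelled KO libraries, or 8.75, 8.75 and 8.98 CPM, against 56, 69 and 80 counts in WT, or 2.17, 2.25 and 2.42 CPM. All labelled KO libraries lay above all WT libraries. Ciart rose 3.86-fold, a log2 change of 1.95 ± 0.13 (edgeR adjusted p = 0.00182). Rora (gene ID 19883, chromosome 9, 68653404 to 69388246, plus strand), the RORE activator, had 45.8, 38.1 and 48.9 CPM in the labelled KO libraries and 61.3, 43.3 and 50.1 CPM in WT. Its groups overlapped, and its log2 change of -0.22 ± 0.15 did not pass (edgeR adjusted p = 0.383, from 0.258 to 0.731 over the 14 alternatives).

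Counted per kilobase of exon (RPKM, with the union of GENCODE M21 exons as length), the order of the factors differed between groups. In the libraries labelled KO the order was Dbp (52.6 ± 8.74 RPKM), Tef (30.6 ± 4.86), Bhlhe40 (20.0 ± 2.90), Bhlhe41 (8.49 ± 1.71), Hlf (7.67 ± 1.17), Ciart (3.90 ± 0.0604), Rora (3.39 ± 0.425) and Nfil3 (2.66 ± 0.248). In WT it was Tef (12.4 ± 1.97 RPKM), Bhlhe40 (8.24 ± 1.20), Dbp (8.0 ± 2.16), Nfil3 (7.49 ± 3.41), Rora (3.94 ± 0.695), Hlf (1.97 ± 0.524), Bhlhe41 (1.33 ± 0.296) and Ciart (1.01 ± 0.0554; SD, n = 3 for each value). Among neighbours in the labelled KO order, Bhlhe41 and Hlf overlapped. In the WT order Bhlhe40, Dbp, Nfil3 and Rora each overlapped the next of these 4, as Hlf did Bhlhe41. The order depends on the exon lengths taken, which may differ from those the authors counted over.

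**Figure D3:**
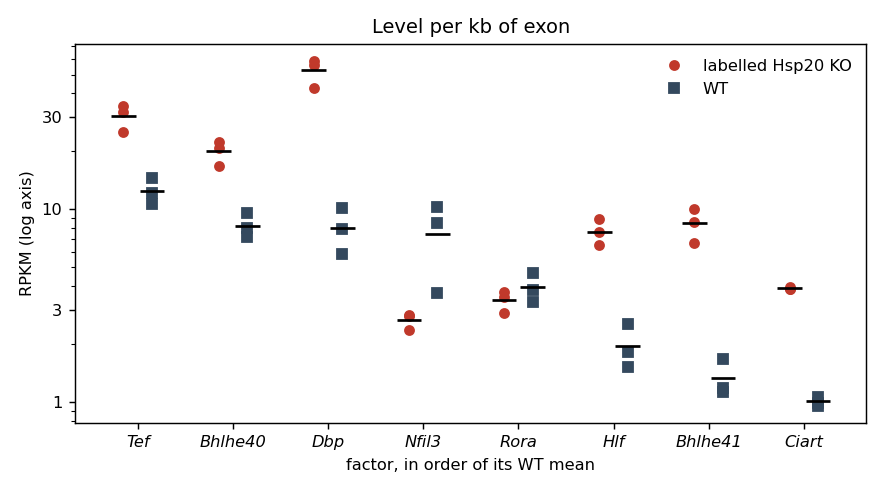
Level of each output factor in RPKM (y axis, log scale) in the libraries labelled Hsp20 KO (circles) and in WT (squares), with the mean of 3 libraries as a bar, in order of the WT mean. Dbp is highest in the labelled KO libraries at a mean of 52.6 RPKM and lies below Tef and Bhlhe40 in WT at 8.0 RPKM, and Nfil3 is lowest in the labelled KO libraries.

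The library labelled KO with the most Hspb6 had output factor levels like the others. On the log2 scale, that library, replicate 1, showed 0.10 of the Hspb6 difference that the other two labelled KO libraries showed from WT. For the 7 factors that passed it showed between 0.83 (Bhlhe41) and 1.10 (Tef) of theirs, so its clock output levels were those of the other labelled KO libraries. Hspb6 was not the only gene in which this library stood apart. Ucp1 had 19.1 CPM in it, against 165 and 308 CPM in the libraries labelled KO replicates 2 and 3. Cidea had 124 against 279 and 253 CPM, Cox7a1 7.30 against 21.2 and 19.7, and Cox8b 31.3 against 76.6 and 82.2. For Elovl3 and Dio2, the other thermogenic markers that passed, it lay between replicates 2 and 3. Each of the 6 factors that rose kept its call under all 14 alternatives, leaving out any single library included, with adjusted p-values of at most 0.0470. Without WT replicate 2 or 3 the 6 were still called higher, while the share of all genes called dropped to 0.847% and 0.792%, against 7.65% with all libraries. Without WT replicate 1, the library with the muscle transcripts, the log2 changes were 2.92 for Dbp, 1.42 for Tef, 2.18 for Hlf, 1.18 for Bhlhe40, 2.86 for Bhlhe41 and 1.91 for Ciart.

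The core clock loop, which the output factors act on and are driven by, changed in both directions. Of 12 of its genes 4 were called higher and 3 lower, with a median log2 change of 0.21. Over all genes tested, 4.23% were called higher and 3.42% lower. Per3, a period gene whose protein joins the repressor complex, had 111, 73.6 and 105 CPM in the labelled KO libraries, against 34.1, 27.5 and 27.9 CPM in WT (log2 change 1.69 ± 0.17, edgeR adjusted p = 0.00411). Nr1d2, which encodes REV-ERB beta, changed by 0.90 ± 0.09 on the log2 scale (edgeR adjusted p = 0.00431). Arntl had 7.77, 7.42 and 5.20 CPM in the labelled KO libraries and 17.8, 16.1 and 17.6 CPM in WT, and Npas2, a partner of BMAL1 in place of CLOCK, had 0.795, 0.550 and 1.04 CPM and 6.64, 5.22 and 3.87 CPM (edgeR adjusted p = 0.00655 and 0.00492). The other calls, named after their values were seen, were Per2 and Nr1d1 among the higher and Clock among the lower. Cry2 had the largest change among those not called (log2 change 0.52 ± 0.19, edgeR adjusted p = 0.142). Leaving out WT replicate 2 left 2 higher and 3 lower calls (0.847% of all genes called), and leaving out WT replicate 3 left 2 and 2 (0.792%).

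Per3 is also where a D-box match was found. Its window held 2 copies of TTATGTAA, as did at most 0.0244% of all windows, which held 2 or more D-boxes of either spelling, and it is printed because DBP, TEF, HLF and NFIL3 bind this element.
Per3, chr4:151044806-151044880, minus strand: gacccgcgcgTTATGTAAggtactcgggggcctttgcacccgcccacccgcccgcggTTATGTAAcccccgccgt
The copies began 205 and 158 bases before the start. Among the core loop genes with a window, 11 of 12, Per1 and Cry1 held an E-box, and an Arntl window held a RORE core after its start.

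**Figure D4:**
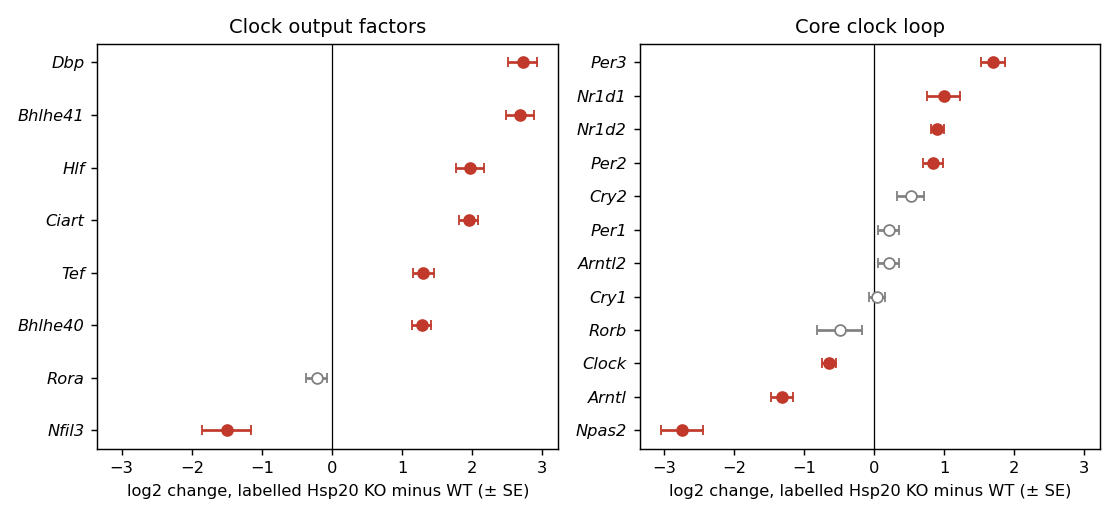
Log2 change, labelled Hsp20 KO minus WT, with its SE (x axis), of the 8 output factors and the 12 core loop genes, filled where the edgeR adjusted p was under 0.05. The output factors reach 2.72 (Dbp) and the core loop genes 1.69 (Per3) on the positive side, and Npas2 lies lowest at -2.75.

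**Figure D5:**
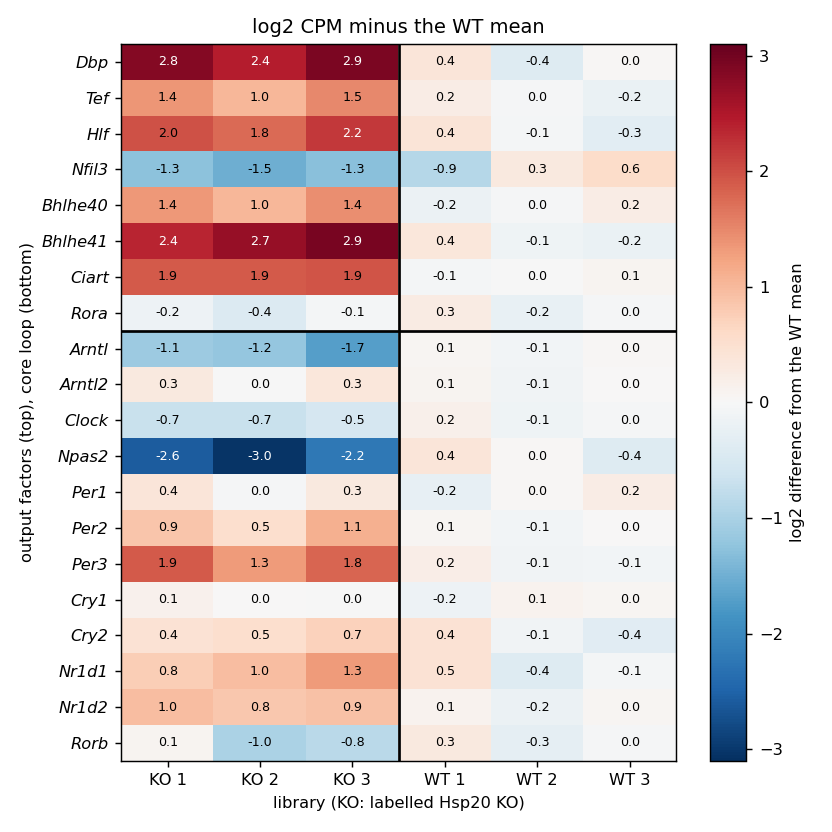
Log2 CPM of each gene minus its WT mean (color and printed value), with libraries in columns and the output factors above the core loop. The 3 labelled KO columns look alike for the output factors, and WT replicate 1 stands out for Nfil3, at -0.89.

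Reported targets of the PAR-bZIP factors, were taken mostly from work on liver, kidney and brain. Of 9 listed, 7 passed the filter (Cyp7a1 and Cyp2a5 did not). Of these 7, edgeR called 0 higher and 1 lower, where 7.65% of all genes tested were called, and 5 genes, 3 of them higher, had an unadjusted p under 0.05. DESeq2 called 3 higher and 1 lower (13.5% of all genes called) and limma-voom 0 and 1 (7.29%). Without the library labelled KO replicate 1, edgeR called 1 and 1 (10.3%). The DESeq2 and limma-voom shares hold for their counts below as well. No share over all genes is given for unadjusted p-values, here or below. Pdxk, the kinase that makes active vitamin B6, had 105, 94.9 and 110 CPM in the labelled KO libraries and 85.7, 85.0 and 78.8 CPM in WT (log2 change 0.31 ± 0.08, edgeR adjusted p = 0.0590), and is given although the rule for named genes did not take it. The largest change among those not called was that of Ppara, a nuclear receptor of fatty acid oxidation (1.53 ± 0.41, edgeR adjusted p = 0.0636). Ppara had 32.1, 87.5 and 76.1 CPM in the labelled KO libraries and 32.4, 21.5 and 13.8 CPM in WT, so the library labelled KO replicate 1 lay within WT. Cyp2b10, a cytochrome P450 of drug metabolism, was the gene called lower, on 3, 1 and 1 counts in the labelled KO libraries against 16, 35 and 15 in WT (edgeR adjusted p = 0.0268), and the call was lost on leaving out any library but the one labelled KO replicate 1.

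Of 9 transcripts that cycle in many mouse tissues, 1 of which, Por, is also among the targets above, 2 were called higher and 1 lower, with a median log2 change of 0.18. Over all genes tested, 4.23% were called higher and 3.42% lower. Tspan4, a tetraspanin, changed by 0.78 ± 0.11 on the log2 scale (edgeR adjusted p = 0.0125), Coq10b, of coenzyme Q function, 0.66 ± 0.14 (0.0342), and Pnp, a purine enzyme, -0.56 ± 0.11 (0.0268). Usp2, a ubiquitin protease that acts on clock proteins, had the largest change of those not called (0.81 ± 0.25, edgeR adjusted p = 0.0927). Without WT replicate 2 none of the 9 was called by edgeR (0.847% of all genes called). Of the 9, 1 was called without WT replicate 1 (4.02%) or without the library labelled KO replicate 2 or 3 (3.76% and 3.64%). Among 13 kinases, ubiquitin ligases and other modifiers of clock proteins, edgeR called 0 higher and 1 lower (1 and 1 at an unadjusted p under 0.05, and 0 and 1 with DESeq2 and limma-voom). The edgeR share was near the 7.65% of all genes tested that were called. The gene edgeR called was Ncor1, a corepressor that the REV-ERB proteins recruit, at 257, 239 and 254 CPM in the labelled KO libraries and 399, 326 and 331 CPM in WT (log2 change -0.49 ± 0.11, edgeR adjusted p = 0.0373), and its call was lost on leaving out any library but the one labelled KO replicate 1. The largest change of the others was that of Timeless, of the DNA replication fork (0.27 ± 0.11, edgeR adjusted p = 0.171).

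Relatives of the members by family, 4 C/EBP and 4 bHLH-Orange factors, had 0 edgeR calls (1 gene, lower, at an unadjusted p under 0.05 and with DESeq2, and 0 with limma-voom) and a median log2 change of -0.02. Among all genes tested, edgeR called 7.65%. The largest change was that of Cebpd, an early factor of fat cell differentiation (-0.96 ± 0.24, edgeR adjusted p = 0.0561). Of the 8, 1 was called lower without WT replicate 1 (4.02% of all genes called) or without the library labelled KO replicate 1 (10.3%). Glucocorticoids reset peripheral clocks and induce Per1, and of 11 genes they induce, 0 were called higher and 4 lower, with a median log2 change of -0.83 (8 genes, 7 of them lower, at an unadjusted p under 0.05, 0 and 6 with DESeq2, 0 and 4 with limma-voom). The edgeR share over all genes tested was 4.23% higher and 3.42% lower. Zbtb16, a zinc finger repressor, changed by -1.72 ± 0.22 (edgeR adjusted p = 0.00843), Klf9, a Krüppel-like factor, by -0.83 ± 0.12 (0.0127), Sgk1, a kinase of salt handling, by -0.81 ± 0.12 (0.0131) and Mt2, a metallothionein, by -2.24 ± 0.42 (0.0257). Fkbp5, a chaperone of the glucocorticoid receptor, was not called (-1.08 ± 0.35, edgeR adjusted p = 0.106), nor was Per1 (0.21 ± 0.15, 0.411). Without WT replicate 2 or 3, 1 of the 11 was called lower (0.847% and 0.792% of all genes called). Per1 and Tsc22d3 each stand in another clock list as well, and the part of this list in the changes of the output factors was not tested.

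The genes nearest to Dbp and Nfil3 in profile were found by the root mean square difference over the 6 libraries of log2 CPM centred on the WT mean, among 14688 genes with a mean of at least 1 CPM. Nearest to Dbp was another member, Bhlhe41 (0.27), followed by Serpina1e, an alpha-1 antitrypsin copy whose reads may be shared with near-identical copies (0.38), and Ttc25, a protein of motile cilia (0.42). Serpina1e had 29.2, 48.9 and 41.3 CPM in the labelled KO libraries, against 7.06, 5.84 and 5.96 CPM in WT. Nearest to Nfil3 were Tnip3, an inhibitor of NF-kB signalling (0.11), Ifi205, an interferon-induced gene (0.20), and Cd209e, a lectin receptor gene (0.23). Tnip3 had 0.976, 0.824 and 0.891 CPM in the labelled KO libraries and 1.13, 3.20 and 3.27 CPM in WT. As for Nfil3, WT replicate 1 lay well below the other WT libraries. Tnip3 stood near the limit of 1 CPM and did not pass (edgeR adjusted p = 0.0691). The 6 macrophage markers summed to 980 to 1275 CPM in the labelled KO libraries and 1163 to 1315 CPM in WT. They had 0 edgeR calls (3 genes, all lower, at an unadjusted p under 0.05, 2 with DESeq2 and 0 with limma-voom), where edgeR called 7.65% of all genes tested. All 6 log2 changes were negative, with a median of -0.36. The groups did not overlap for Itgam (-0.63 ± 0.15, edgeR adjusted p = 0.0505) and Adgre1 (-0.55 ± 0.19, 0.113). The part of the macrophage markers in the change of Nfil3 was not tested.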

How the data were processed

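RNA of inguinal fat was sequenced in 6 libraries, each taken as 1 mouse. Per the submitters' processing notes, the tools were TopHat, DESeq, CASAVA 1.8 and bcl2fastq, and the build GRCm38 (mm10). Which counter and annotation were used, and whether strand was used, is not stated. The authors deposited raw counts for each gene ID. Of 24415 IDs, 24334 were matched to symbols through RefSeq (GRCm38.p6), and the other 81 held 1.30% to 5.74% of a library.

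Genes were tested with edgeR 4.0.16 (R 4.3.3): TMM scaling, filterByExpr with minimum count 10 and total 15, and a quasi-likelihood F test on genotype alone, Benjamini-Hochberg adjusted over 15994 genes at 0.05. The SE is that implied by the F statistic. The test was checked on simulated data. RPKM used GENCODE M21 exons, and ratios a pseudocount of 0.5 counts. Alternatives were DESeq2 1.42.0, limma-voom (limma 3.58.1), normalization, filters, robust dispersions, a replicate block and leaving out each library. Members and lists were chosen with earlier results of these data known, and 1 core loop gene is not reported here. Named genes were the members, up to 4 calls per clock list by p-value, the largest change not called, and the 3 nearest profiles of Dbp and of Nfil3. The fat cell, thermogenic, red cell, muscle and macrophage markers are given by sums and counts. Single markers are named where a library stood apart, counts were shared or groups did not overlap. Lists of 8 lymphocyte, 5 endothelial and 4 epidermis markers (1 tested) had 0 edgeR calls and are not described further. The labels number the replicates but do not say that each is a separate mouse. They were taken so, and only then do p-values measure the spread between mice. Replicates of a group differed beyond sampling noise (18.5 or more chi-square per degree of freedom). Smaller libraries limit low genes.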

Additional observations from a re-analysis of the deposited data

How the results depend on the processing

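The rises of Dbp, Tef, Hlf, Bhlhe40, Bhlhe41 and Ciart kept their direction and passed under all 14 alternatives, and at an adjusted p under 0.01. Their log2 changes ran from 2.54 to 2.92, 1.20 to 1.42, 1.81 to 2.18, 1.18 to 1.40, 2.54 to 2.86 and 1.91 to 1.99. Nfil3 kept its direction in 14 of 14 and passed in 7. The calls over all genes numbered 1223, against 2159 with DESeq2, 152 at an adjusted p under 0.01, and between 128 and 1671 with a single library left out (137 without WT replicate 2 and 128 without WT replicate 3). Over the clock lists other than the members, with 12, 7, 9, 13, 11 and 8 genes tested and some genes shared, 16 genes were called. Of all genes tested 7.65% were called. With a library left out the 16 became between 6 without WT replicate 2 (0.847% of all genes) and 20 without the library labelled KO replicate 1 (10.3%). Of the 8 members, 7 or 6 were called with a library left out. The Dbp/Nfil3 difference of 4.10 was 4.05 with a pseudocount of 5 counts and ran from 3.75 to 4.74 with a library left out, highest without WT replicate 1.

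The replicate numbers were not taken to pair the mice: deviations of libraries with the same number correlated at -0.04, 0.09 and -0.10 across genes, and not every library correlated best with its own number. With the replicate block 395 genes were called and 6 members, with Nfil3 at an adjusted p of 0.0803. The smallest library, labelled KO replicate 3 with 14078936 counts, limits low transcripts such as Cyp2b10.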
